A study of Mus musculus with 26 samples.

Results

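The transcription factor NFAT5 and 5 genes through which cells gather compatible osmolytes were followed through 3 stresses in NIH3T3, an established mouse fibroblast line of embryonic origin. The 6 genes (Nfat5, Slc5a3, Slc6a6, Slc6a12, Akr1b3 and Slc38a2) were taken by symbol from 20430 genes in the RNA tables and 19941 genes in the ribosome footprint tables, and every one was present once in both. Footprints are the mRNA fragments that ribosomes protect, so their number reflects both the amount of a message and how heavily it is being translated. The RNA libraries were made from polyA-selected RNA, and all groups had 2 libraries that the labels number as replicates.

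The labels give 8 RNA groups: cells kept as the control for heat, cells at 44 °C for 2 h, cells at 42 °C for 8 h, a second control for H2O2 and KCl together, and cells given H2O2 or KCl for 2 h or 7 h each. The footprint libraries used here cover the second control, H2O2 and KCl. The groups share the same cell line and carry no named allele; the labels used here name no dose of H2O2 or KCl. The labels do not say whether the 2 libraries of a group came from separate cultures, so p-values measure the spread between libraries, which may be technical. RNA libraries held 24441877 to 45244430 counts and footprint libraries 1460751 to 5168537. The summed level of 6 fibroblast markers was 3548 to 9331 TPM (transcripts per 1000000, a level per transcript length) in RNA, that of 3 epithelial markers 0.55 to 2.81 TPM and that of 2 endothelial markers 0 to 2.19 TPM. The 2 haematopoietic markers summed to 5.33 to 44.7 TPM in RNA.

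When the fluid around a cell becomes too salty, water leaves the cell and the salts inside become concentrated. Cells answer over hours by exchanging those salts for small organic molecules that proteins tolerate, the compatible osmolytes, and NFAT5 (also called TonEBP) is the transcription factor that switches on the genes for their uptake and synthesis. Slc5a3 encodes a sodium-driven myo-inositol transporter, Slc6a6 the taurine transporter, Slc6a12 a transporter of betaine and GABA, and Akr1b3 aldose reductase, which turns glucose into sorbitol. Slc38a2 encodes the amino acid transporter SNAT2, which is also controlled by amino acid supply and brings in small neutral amino acids that can serve as an early osmolyte. NFAT5 binds a DNA element called TonE, the tonicity-responsive element, whose core is TGGAAA.

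The windows of 250 bases before annotated starts (RefSeq, GRCm38.p6, the build that the submitters call mm10) were searched on both strands for TonE, for its core TGGAAA, which every TonE match holds, and for GGAAA, which lies inside both. Windows were found for 4 of the 6 genes: Nfat5, Slc5a3, Slc6a12 and Slc38a2. These genes have 8 windows, 5 of them of Slc6a12, whose annotation lists several starts, and 1 of each other gene. TonE was matched in 1 of the 8, the Slc6a12 window before the outermost start, and 4.31% of all 32851 promoter windows of this length held it. That Slc6a12 window is shown because it holds that match, in capitals. The Slc5a3 window is shown beside it as an example that held neither TonE nor GGAAA. Of the windows not shown, that of Slc38a2 likewise held neither, and that of Nfat5 held GGAAA on the opposite strand and no TonE.
Slc6a12, chr6:121342324-121342573, + strand: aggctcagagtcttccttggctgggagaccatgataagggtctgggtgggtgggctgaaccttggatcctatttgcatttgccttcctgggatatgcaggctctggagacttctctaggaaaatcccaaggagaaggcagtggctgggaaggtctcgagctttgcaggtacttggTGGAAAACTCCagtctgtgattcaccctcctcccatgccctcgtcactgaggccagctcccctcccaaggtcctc
Slc5a3, chr16:92058072-92058321, + strand: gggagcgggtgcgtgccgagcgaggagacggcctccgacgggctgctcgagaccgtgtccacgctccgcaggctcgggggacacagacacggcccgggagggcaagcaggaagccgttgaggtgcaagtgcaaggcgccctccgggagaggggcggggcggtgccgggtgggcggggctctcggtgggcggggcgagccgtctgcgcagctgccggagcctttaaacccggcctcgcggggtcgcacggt

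The matched element TGGAAAACTCC lies on chromosome 6 from 121342499 to 121342509, 75 to 65 bases before the annotated start of Slc6a12. TGGAAA alone was present in 18.58% and GGAAA in 55.57% of all windows. Guanine and cytosine made up 55.6% of the Slc6a12 window shown and 74.8% of the Slc5a3 window. In the annotation the Slc6a12 gene spans 121342574 to 121365773 on chromosome 6, and its relative Slc6a13 ends 4852 bases before it. A match describes letters in these windows and not binding, and elements farther from the start were not searched.

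Under KCl the RNA of all 6 genes rose, 5 of them by 2 h and Slc6a12 by 7 h. After 2 h, 5 of 6 genes were called higher than in the control (quasi-likelihood test of edgeR, p adjusted by Benjamini-Hochberg, threshold 0.05), against 27.2% of 13256 genes tested. After 7 h, 6 of 6 were called higher, against 37.2% of genes tested. The median log2 fold change of the 6 was 1.95 at 2 h and 2.15 at 7 h, beside 0 and 0.04 over all genes tested. Slc6a12 passed the filter on low counts through its 7 h libraries, so its call there follows in part from the filter and the counts over the 6 genes are given as a description. Of 6 fibroblast markers 4 were called higher at KCl 2 h, and 3 higher and 2 lower at 7 h. Cd68 RNA, a haematopoietic marker, stood at a mean of 18.5 and 5.47 TPM against 9.79 TPM in the controls. Pecam1 RNA, an endothelial marker, was called higher at 2 h (edgeR, adjusted p 0.000417), at a mean of 0.36 TPM against 0.05 TPM. Cdh1 RNA, an epithelial marker, was called higher at 7 h (adjusted p 9.7e-05), at 0.63 TPM against 0.19 TPM. The epithelial markers Epcam and Krt8 were called at neither time. The part of these markers in the values given here was not tested. In such bulk libraries fewer cells of a kind and less RNA per cell cannot be told apart. The genes differed in timing. For Nfat5 the difference between 2 h and 7 h did not pass the test. Slc38a2 was higher at 2 h than at 7 h, and Slc6a6, Akr1b3 and Slc6a12 were higher at 7 h.

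Nfat5, the regulator itself, stood at 26.6 and 27.7 TPM in the 2 control RNA libraries, 88.2 and 117.8 TPM after 2 h of KCl and 98.6 and 109.6 TPM after 7 h. Both KCl groups lay above both controls, and the 7 h values lay between the 2 h values. The RNA rose by 2.01 ± 0.109 (log2, SE) at 2 h, which is 4.03-fold (edgeR, adjusted p 3.01e-09), and by 1.98 ± 0.109 at 7 h (adjusted p 2.14e-09). The difference between 7 h and 2 h was -0.03 ± 0.104 and did not pass the test (edgeR, adjusted p 0.815). That difference turned on the 2 libraries at 2 h: it was -0.24 without replicate 1 (edgeR, adjusted p 0.00583) and 0.21 without replicate 2 (adjusted p 0.0129).

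Akr1b3, the enzyme that makes sorbitol, stood at 199 and 200.5 TPM in the controls, 723 and 697 TPM after 2 h and 4030 and 4127 TPM after 7 h. The 3 groups did not overlap. The increase was 3.81-fold at 2 h and 21.9-fold at 7 h (log2 4.45 ± 0.0647, edgeR, adjusted p 1.16e-14), and RNA rose 5.75-fold from 2 h to 7 h. Ranked by TPM, Akr1b3 moved from places 848 and 837 in the control libraries to places 13 and 10 after 7 h, and its share of all RNA counts rose from 0.0129% to 0.246%. The 7 h increase was between 4.35 and 4.46 in log2 under every alternative run.

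Slc6a12, the betaine transporter, was all but silent until late. The control libraries held 1 and 0 counts, the KCl 2 h libraries 0 and 1, and the KCl 7 h libraries 233 and 173 counts (7.29 and 6.87 TPM). By counting error alone, the count of 0 in control replicate 2 allows up to 3 counts, or 0.0839 counts per 1000000. The KCl 7 h libraries stood clear of all other RNA libraries of both experiments. The 406 counts at 7 h against 1 in the controls gave a ratio of 694 after scaling by normalized library size (exact 95% interval of the counts 124 to 27500). The call passed (edgeR, adjusted p 2.51e-10). Its neighbour Slc6a13 held no counts in the KCl 7 h RNA libraries.

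Slc6a6, the taurine transporter, rose in steps from 133.6 and 134.5 TPM in the controls to 211 and 215 TPM at 2 h and 389 and 423 TPM at 7 h. No 2 of these groups overlapped. The increases were 1.74-fold at 2 h and 3.04-fold at 7 h (edgeR, adjusted p 1.45e-06 and 1.06e-09), and the step from 2 h to 7 h passed as well (log2 0.81 ± 0.0801, adjusted p 6.36e-07).

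Slc38a2, the amino acid transporter, went from 256 and 258 TPM in the controls to 1362 and 1594 TPM at 2 h and 894 and 971 TPM at 7 h. The 2 h libraries were the highest of all 16 RNA libraries for this gene. The increase was 6.12-fold at 2 h and 3.89-fold at 7 h, and RNA fell by 0.66 on the log2 scale between them (SE 0.0794, edgeR, adjusted p 4.64e-06).

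Slc5a3, the myo-inositol transporter, stood at 11.1 and 12.1 TPM in the controls, 35.9 and 49.8 TPM at 2 h and 51.3 and 56.5 TPM at 7 h. All KCl libraries exceeded both controls, while the 2 h libraries lay far apart from each other. RNA rose 3.93-fold at 2 h and 4.98-fold at 7 h (edgeR, adjusted p 1.17e-08 and 1.71e-09). The further rise from 2 h to 7 h was small (log2 0.34 ± 0.117, edgeR, adjusted p 0.0176) and lost its call without KCl 2 h replicate 1 (0.14, adjusted p 0.215) or KCl 7 h replicate 2 (0.29, adjusted p 0.104), under DESeq2 (0.33, adjusted p 0.0781) and on the log2(TPM + 1) scale with limma (adjusted p 0.0511). From 2 h to 7 h, 4 of the 6 genes were called higher and 1 lower, against 35.1% and 33.7% of all genes tested. Those called higher include Slc6a12, which passed the filter on low counts through its 7 h libraries.

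**Figure D1:**
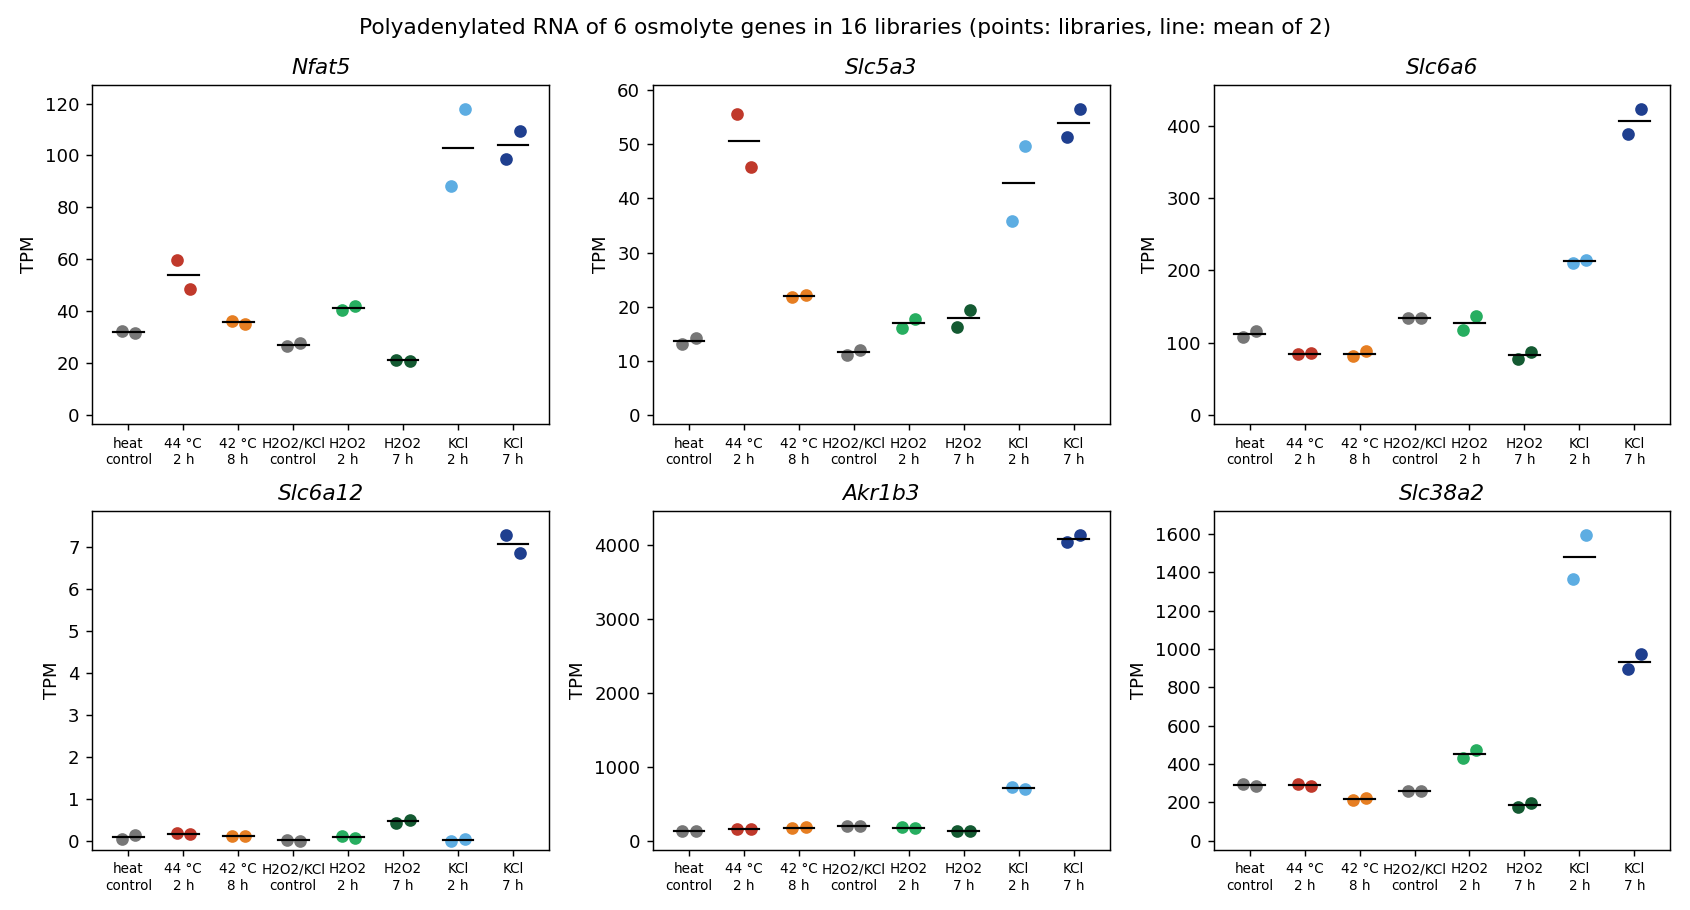
RNA level in TPM (linear axes, one panel per gene) in each of the 16 RNA libraries, grouped by condition; points are libraries and lines the mean of 2. All KCl 7 h points lie above both H2O2/KCl control points in every panel, for example at 4030 and 4127 TPM against 199 and 200.5 TPM for Akr1b3, and at 7.29 and 6.87 TPM against 0.02 and 0 TPM for Slc6a12.

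At 2 h of KCl footprints of 3 of 6 genes were called higher, against 1.79% of 10545 genes tested: Nfat5, Akr1b3 and Slc38a2. At 7 h footprints of 6 of 6 were called higher, against 10.5%, where Slc6a12 again passed the filter on low counts through its 7 h libraries, so its footprint call follows in part from the filter. In simulated footprint data of this design, 31.8% of genes changed 2-fold and 88.9% of genes changed 4-fold were recovered at 2 h. The changed genes were drawn at random across levels, and all other differences between groups were removed. These shares therefore do not give the recovery of the 6 genes themselves.

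Slc38a2 footprints were already high at 2 h and stayed there. They stood at 393 and 437 TPM in the controls, 2505 and 2091 TPM at 2 h and 2697 and 2072 TPM at 7 h. The 2 KCl groups overlapped and both lay clear of the controls. Footprints rose 5.60-fold at 2 h and 5.81-fold at 7 h (edgeR, adjusted p 7.34e-05 and 1.22e-05), and the difference between the 2 times was 0.05 ± 0.187 (adjusted p 0.874).

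Akr1b3 footprints were spread in the controls, at 287 and 155 TPM, and stood at 596 and 501 TPM at 2 h and 4051 and 4085 TPM at 7 h. The groups did not overlap, and at 7 h the footprints ranked at places 15 and 14 of the library. The increase was 2.59-fold at 2 h and 19.0-fold at 7 h (edgeR, adjusted p 0.00666 and 3.59e-06).

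Slc6a12 footprints numbered 1 and 0 counts in the controls, 3 and 0 at 2 h, and 289 and 209 at 7 h. Only the 7 h libraries of KCl stood above 15 counts. The ratio of summed counts at 7 h to the control was 622 (exact 95% interval 111 to 24600), and the call passed (edgeR, adjusted p 9.09e-06).

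Nfat5 footprints stood at 22.9 and 22.8 TPM in the controls, 61.9 and 39.0 TPM at 2 h and 89.8 and 113 TPM at 7 h. The groups did not overlap, though the 2 h libraries differed widely. The 2 h increase was 1.14 ± 0.252 (log2, edgeR, adjusted p 0.0171) and it lost its call without KCl 2 h replicate 1 (0.85, adjusted p 0.164) or without either control replicate (1.16 and 1.17, adjusted p 0.0911 and 0.0696). It was also lost on the log2(TPM + 0.1) and log2(TPM + 1) scales with limma (1.10 and 1.07, adjusted p 0.056 and 0.0525). The 7 h increase was 2.12 ± 0.257 (adjusted p 0.000222), 0.98 above that at 2 h (adjusted p 0.0154). This step lost its call without KCl 2 h replicate 2 (0.73, adjusted p 0.147) or KCl 7 h replicate 2 (0.76, adjusted p 0.124).

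Slc6a6 footprints stood at 263 and 296 TPM in the controls, 351 and 327 TPM at 2 h and 783 and 702 TPM at 7 h. The 2 h libraries lay above both controls, and their difference of 0.38 ± 0.186 did not pass the test (edgeR, adjusted p 0.275). At 7 h footprints rose 2.72-fold (adjusted p 0.000338).

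Slc5a3 footprints stood at 65.7 and 63.1 TPM in the controls (580 and 521 counts), 79.1 and 49.3 TPM at 2 h (522 and 337 counts) and 185 and 172 TPM at 7 h. The 2 h libraries lie on either side of the controls, and both 7 h libraries lie far above. Footprints differed from the control by 0.04 ± 0.208 at 2 h (edgeR, adjusted p 0.957), -0.28 without KCl 2 h replicate 1, and rose 2.84-fold at 7 h (adjusted p 0.000489). Between 2 h and 7 h they rose 2.77-fold (adjusted p 0.000882), and over the same interval footprints of 5 of the 6 genes were called higher, against 12.1% of genes tested. Those called higher include Slc6a12, which passed the filter on low counts through its 7 h libraries.

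**Figure D2:**
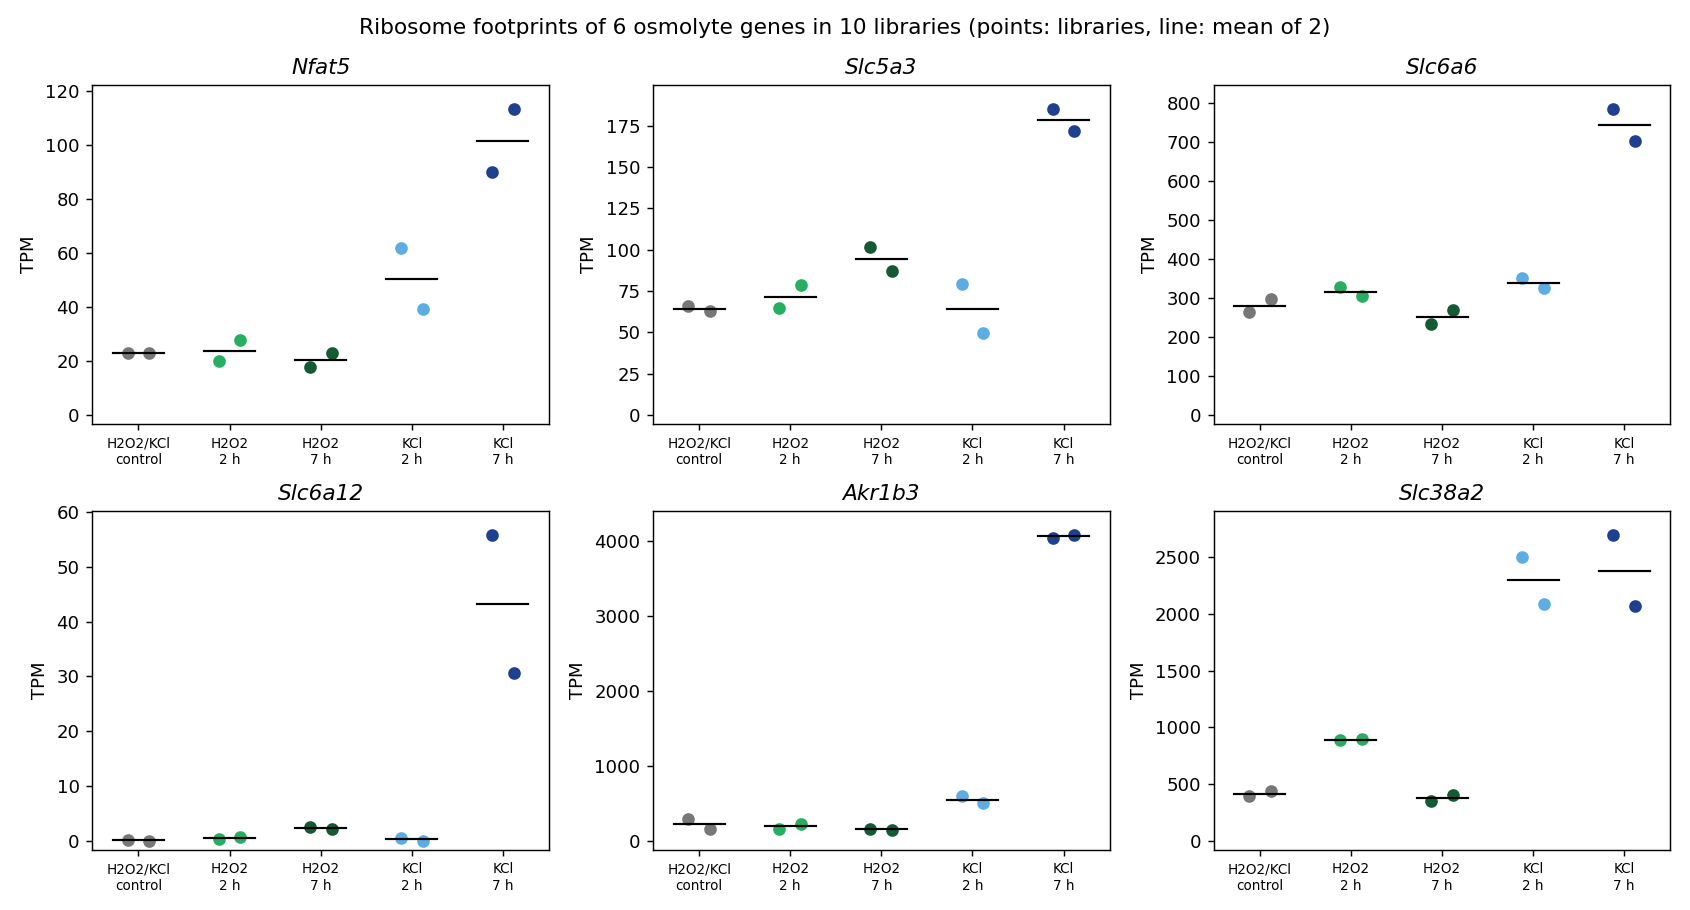
Footprint level in TPM (linear axes, one panel per gene) in each of the 10 footprint libraries; points are libraries and lines the mean of 2. For Slc5a3 the KCl 2 h points (79.1 and 49.3 TPM) straddle the control points, while the KCl 7 h points (185 and 172 TPM) are the highest of the panel.

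Translational efficiency, the change in footprints beyond the change in RNA, was tested as an interaction in one model of both library kinds. Of the 5 genes other than Slc6a12 it passed the test for 1 at KCl 2 h, where it fell for Slc5a3 by 1.94 on the log2 scale (SE 0.253, edgeR, adjusted p 9.51e-05), a 0.26-fold value. Of all 10480 genes tested, 9.18% were called lower and 3.58% higher in efficiency at that time. The value for Slc5a3 stayed between -2.26 and -1.68, with adjusted p at most 0.00116, under every alternative run. For Nfat5 it was -0.88 ± 0.294 (adjusted p 0.0593), which passed with DESeq2 (-0.84, adjusted p 0.0447), without KCl 2 h footprint replicate 1 (-1.17, adjusted p 0.0192) and without KCl 2 h RNA replicate 1 (-1.08, adjusted p 0.0293). For Akr1b3 it was -0.57 ± 0.269 (adjusted p 0.18), and -0.92 without control footprint replicate 2 (adjusted p 0.00936). Slc6a6 (-0.43, adjusted p 0.155) and Slc38a2 (-0.14, adjusted p 0.705) did not pass.

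At KCl 7 h edgeR called none of the 5 genes, and 3.88% of all genes were called lower and 1.69% higher. Slc5a3 stood at -0.78 ± 0.248 (adjusted p 0.0735, 0.0296 with DESeq2) and Slc38a2 at 0.61 ± 0.194 (adjusted p 0.0774, 0.0162 with DESeq2). These were the 2 genes with an unadjusted p under 0.05 (0.00557 and 0.00608, edgeR), and their 95% intervals ran from -1.27 to -0.30 for Slc5a3 and from 0.23 to 0.99 for Slc38a2. Akr1b3 was at -0.18 with an interval from -0.70 to 0.34 and turned to 0.29 without control footprint replicate 1. Slc6a12 is not given an efficiency because its controls held 1 count in either kind of library.

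Slc5a3 shares its locus with Mrps6, which encodes a mitochondrial ribosomal protein. In the annotation Slc5a3 spans 92058322 to 92087473 and Mrps6 92058336 to 92112227 on chromosome 16, so their starts lie 14 bases apart and reads over shared sequence could be assigned to either. Mrps6 RNA rose by 0.58 ± 0.0558 at 2 h and 1.96 ± 0.0554 at 7 h of KCl (log2, edgeR, adjusted p 9.54e-07 and 4.99e-12), and its footprints by 1.95 ± 0.221 at 7 h (adjusted p 0.000121). Its efficiency at 2 h was -0.03 ± 0.208 (adjusted p 0.959). The fall in efficiency at 2 h was measured for Slc5a3 and not detected for the gene that overlaps it, and a test of the difference between the 2 genes was not run.

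**Figure D3:**
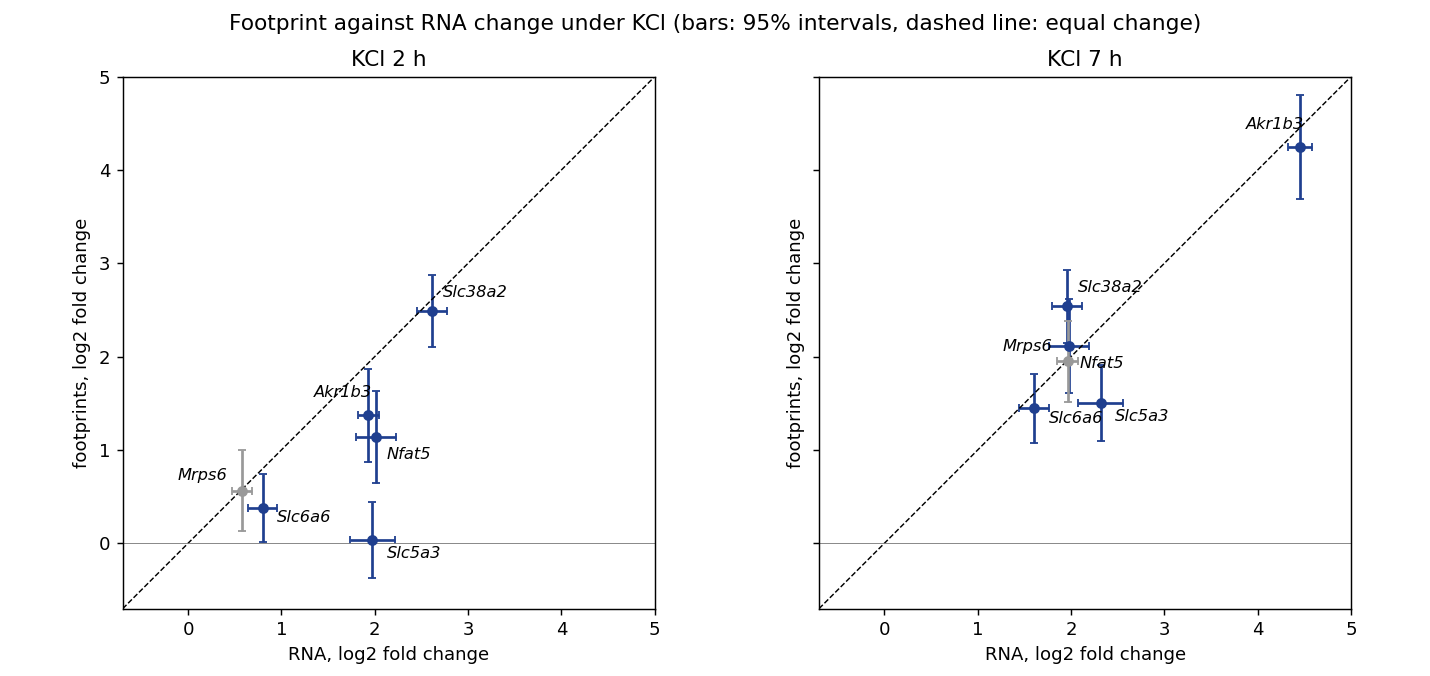
Log2 fold change of footprints (vertical axis) against that of RNA (horizontal axis) for KCl 2 h and KCl 7 h against control; bars are 95% intervals and the dashed line marks equal change. Slc5a3 lies far under the line at 2 h (RNA 1.97, footprints 0.04), Mrps6 is drawn in grey for comparison, and Slc6a12 is left out because of its control counts.

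Under H2O2, which stresses cells by oxidation, the 6 genes moved in both directions. At 2 h the RNA of 4 of 6 genes was called higher and 1 lower (Akr1b3), against 27.3% and 26.5% of all genes tested. At 7 h, 2 were called higher and 4 lower, against 39.4% and 31.1%. Between the 2 times, 1 of 6 was called higher at 7 h and 4 lower, against 37.3% and 36.1%. Slc6a12 is among those called higher in each of these comparisons, and it passed the filter on low counts through its 7 h libraries. Its 2 h call rested on 6 counts against 1 (edgeR, adjusted p 0.0457) and was lost under several alternatives. The KCl and H2O2 comparisons share their control libraries, so their values are set side by side only. At 7 h of H2O2 all 6 fibroblast markers were called lower as well, by a median of 1.19 on the log2 scale, and their part in the values below was not tested. Markers of other cell types moved too: Cd68 RNA, at a mean of 9.79 TPM in the controls, rose to 28.8 TPM at 2 h and 43.7 TPM at 7 h of H2O2, while the other haematopoietic marker, Ptprc, stayed at or below 0.05 TPM. Pecam1 RNA, an endothelial marker, rose from a mean of 0.05 TPM to 1.83 TPM at 2 h and 0.27 TPM at 7 h, with Cdh5 at no more than 0.09 TPM. Of 3 epithelial markers, 2 were called higher at 2 h and 1 at 7 h, with the highest library of any at 1.12 TPM. The part of these markers was not tested either.

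Slc38a2 RNA was at 430.1 and 470.9 TPM after 2 h of H2O2, then 175.1 and 197 TPM after 7 h, with the controls at 256 and 258 TPM between them. RNA rose by 0.81 ± 0.0798 at 2 h and fell by 0.39 at 7 h (edgeR, adjusted p 1.34e-06 and 0.000552). Nfat5 RNA moved likewise, at 40.6 and 42.1 TPM at 2 h and 21.3 and 20.9 TPM at 7 h around controls of 26.6 and 27.7 TPM. It rose 1.52-fold at 2 h (adjusted p 0.000279) and fell by 0.32 on the log2 scale at 7 h (adjusted p 0.017), a call lost without control replicate 2 (-0.28, adjusted p 0.0851) or H2O2 7 h replicate 2 (-0.32, adjusted p 0.0603).

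With H2O2, Akr1b3 RNA was at 179 and 169 TPM at 2 h, then 126.7 and 126.6 TPM at 7 h, all below both controls. It fell by 0.20 at 2 h (edgeR, adjusted p 0.00993), a call lost without H2O2 2 h replicate 2 (-0.16, adjusted p 0.111), and by 0.58 at 7 h (adjusted p 6.78e-07). Slc6a6 RNA was at 117.4 and 137.5 TPM at 2 h, on either side of the controls, and at 77.8 and 87.3 TPM at 7 h, below them. It fell by 0.67 on the log2 scale at 7 h (adjusted p 3.99e-06). Slc5a3 RNA was at 16.03 and 17.8 TPM at 2 h and 16.3 and 19.4 TPM at 7 h, above both controls at each time, and rose 1.46-fold and 1.63-fold (adjusted p 0.00188 and 0.000136).

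Slc6a12 was the one gene of the 6 whose footprints passed the test at 7 h of H2O2. This gene passed the filter on low counts through its 7 h libraries, so the call follows in part from the filter. With H2O2 its RNA held 4 and 2 counts at 2 h, then 15 and 14 counts at 7 h, against 1 and 0 in the controls, and its footprint counts were 15 and 13 at 7 h. These libraries stand above the controls but far below the KCl 7 h libraries. The ratio at 7 h of H2O2 to the control was 43.1 in RNA (exact 95% interval 7.14 to 1760) and 31 in footprints (5.12 to 1270). The RNA call at 2 h rested on 6 counts against 1 (ratio 7.94, interval 0.964 to 365; edgeR, adjusted p 0.0457) and was lost without either control replicate (adjusted p 0.0509 and 0.179), without H2O2 2 h replicate 1 (adjusted p 0.26) with DESeq2 (adjusted p 0.0985) and on the log2(TPM + 1) scale with limma (adjusted p 0.225). KCl 7 h exceeded H2O2 7 h by a ratio of 16.1 in RNA (11 to 24.4) and 20.1 in footprints (13.7 to 30.5).

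Footprints of 1 of 6 genes were called higher at H2O2 2 h, Slc38a2, against 1.14% of all genes tested. They stood at 886 and 893.1 TPM there against 393 and 437 TPM in the controls, with no overlap, and rose 2.20-fold (edgeR, adjusted p 0.0101). The call was lost without either control replicate (log2 1.05 and 1.22, adjusted p 0.0942 and 0.065), with only the groups compared (adjusted p 0.0742) and on both TPM scales with limma (adjusted p 0.06 and 0.0501). At H2O2 7 h 1 of 6, Slc6a12, was called higher, against 17.2% of genes tested. This gene passed the filter on low counts through its 7 h libraries. Akr1b3 footprints at 7 h (161 and 143.5 TPM) differed from the control by -0.64 ± 0.254 (adjusted p 0.0764) and passed without control replicate 2 (adjusted p 0.0134) and without the filter on low counts (adjusted p 0.0389). Translational efficiency under H2O2 passed for none of the 5 genes it was read for in edgeR or DESeq2, while 7.46% of all genes were called lower and 3.98% higher at 2 h, and 4.57% and 4.69% at 7 h. The smallest unadjusted p among these 5 genes at either time was that of Slc6a6 at 7 h, 0.0537 (0.40 ± 0.191, edgeR, adjusted p 0.216), so none was under 0.05 before adjustment.

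Set against H2O2 at the same time, KCl gave higher RNA of 5 of 6 genes at 2 h and 6 of 6 at 7 h, against 24.2% and 37.4% of all genes tested. The differences at 7 h ran from 1.62 ± 0.121 for Slc5a3 to 5.03 ± 0.0669 for Akr1b3 on the log2 scale. In footprints, 3 of 6 genes were higher under KCl at 2 h, against 2.1% of genes, and 6 of 6 at 7 h, against 17.8%. Slc6a12 passed the filter on low counts through its 7 h libraries, so the counts over the 6 genes are given as a description. At 2 h the 3 genes with higher footprints were Nfat5, Akr1b3 and Slc38a2. The difference for Nfat5 (1.00 ± 0.253, edgeR, adjusted p 0.0395) lost its call without H2O2 2 h replicate 1 (0.79, adjusted p 0.169) or without either KCl 2 h replicate (0.71 and 1.25, adjusted p 0.229 and 0.0588). It was also lost with only the groups compared in the fit (1.02, adjusted p 0.0941) and on both TPM scales with limma (1.07 and 1.04, adjusted p 0.071 and 0.0679).

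**Figure D4:**
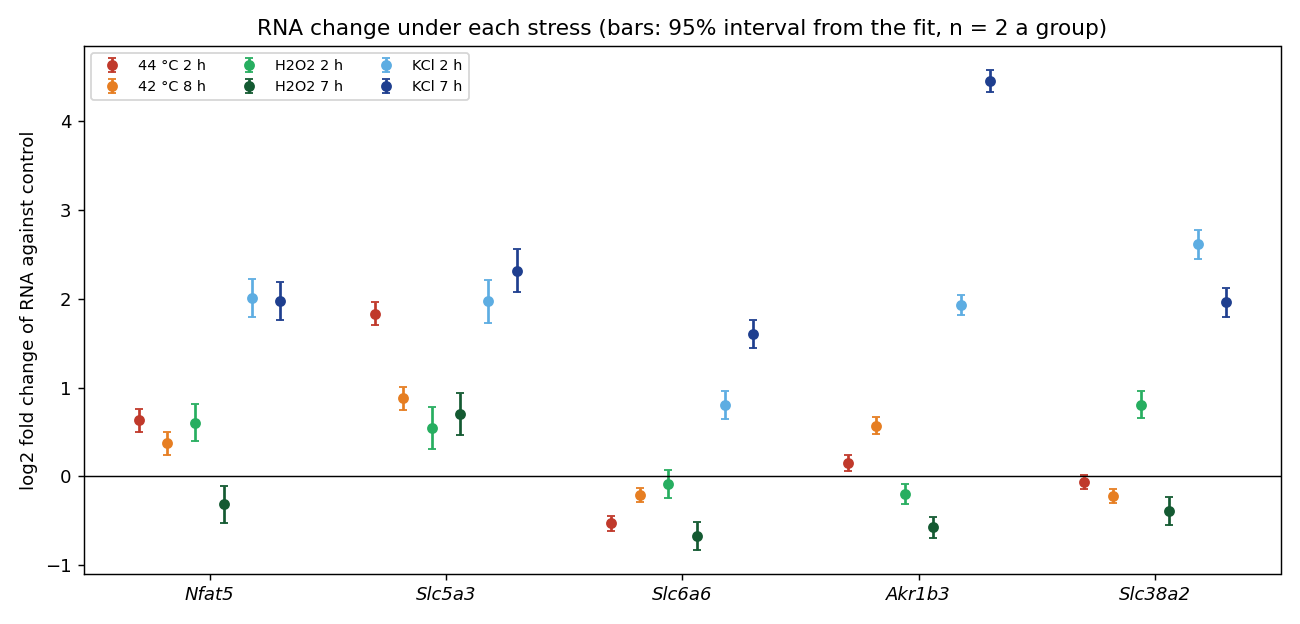
Log2 fold change of RNA against the matching control for 5 genes under each of 6 stresses; points are the fitted change and bars its 95% interval, with 2 libraries a group. Under KCl every point lies above 0, from 0.80 for Slc6a6 at 2 h to 4.45 for Akr1b3 at 7 h, and Slc5a3 at 44 °C reaches 1.83; Slc6a12 is left out because of its control counts.

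Among the 5 genes tested in heat, RNA of the myo-inositol transporter rose most at both temperatures. Slc5a3 stood at 13.03 and 14.2 TPM in the heat controls, 55.6 and 45.7 TPM after 2 h at 44 °C and 21.8 and 22.1 TPM after 8 h at 42 °C, and the 3 groups did not overlap. It rose 3.56-fold at 44 °C (log2 1.83 ± 0.0676, edgeR, adjusted p 3.19e-11) and 1.84-fold at 42 °C (adjusted p 8.64e-08). In TPM its level at 44 °C overlapped those of KCl at 2 h and 7 h, but the experiments have separate controls and were not tested against each other. Mrps6, which overlaps it, rose by 0.17 ± 0.0562 at 44 °C (adjusted p 0.0124).

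At 44 °C, 3 of the 5 genes tested were called higher and 1 lower, against 35.4% and 35.7% of 12747 genes, and at 42 °C 3 were called higher and 2 lower, against 31.7% and 31.9%. Set against each other, 2 of the 5 were higher and 3 lower at 42 °C for 8 h than at 44 °C for 2 h, against 37.9% and 37.2%. All 6 fibroblast markers were called lower at 44 °C, by a median of 0.32 on the log2 scale, and their part in these values was not tested. Nfat5 stood at 32.4 and 31.7 TPM in the heat controls, 59.8 and 48.4 TPM at 44 °C and 36.3 and 35.0 TPM at 42 °C. It rose 1.55-fold at 44 °C (edgeR, adjusted p 1.06e-06) and 1.29-fold at 42 °C (adjusted p 0.00025), and the second call was lost on the log2(TPM + 1) scale with limma (0.15, adjusted p 0.134), where the median of all genes stood at -0.16.

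Akr1b3 stood at 129 and 136 TPM in the heat controls, 151 and 156 TPM at 44 °C and 168 and 178 TPM at 42 °C. The groups did not overlap, and RNA rose 1.48-fold at 42 °C (edgeR, adjusted p 1.59e-07). The change at 44 °C, 1.11-fold (adjusted p 0.013), lost its call without control replicate 1 (log2 0.11, adjusted p 0.141) or without 44 °C replicate 2 (0.10, adjusted p 0.1). Slc6a6 stood at 108 and 116.5 TPM in the controls, 84.1 and 85.0 TPM at 44 °C and 81.8 and 88.0 TPM at 42 °C, and fell by 0.53 and 0.21 on the log2 scale (adjusted p 4.19e-08 and 0.000422). Slc38a2 stood at 295 and 285 TPM, 298 and 282 TPM, and 213 and 223 TPM in the same order, and fell by 0.23 at 42 °C (adjusted p 0.000209). Slc6a12 held 2 and 5 counts in the heat controls, 6 and 5 at 44 °C and 4 and 4 at 42 °C, and was not tested there.

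The genes kept different orders of conditions. By mean TPM in RNA, KCl 7 h was highest for Nfat5 (104 ± 7.74 TPM, SD, n = 2), Slc5a3 (53.9 ± 3.63), Slc6a6, Slc6a12 and Akr1b3, and KCl 2 h was highest for Slc38a2. Nfat5 at KCl 2 h (103 ± 20.9 TPM) could not be told from KCl 7 h, and for Slc5a3 44 °C (50.7 ± 6.99 TPM) came next and overlapped KCl 7 h. Across the 16 RNA libraries, log2 levels were taken relative to the mean of the control libraries of the same experiment. Pairs of the 5 measured genes then correlated from r = 0.572 (Slc5a3 and Slc6a6) to r = 0.94 (Slc6a6 and Akr1b3). This is a description over libraries that share groups and 2 controls. Among 12452 genes the pattern most like that of Nfat5 was that of Arid4b (r = 0.982), that of Akr1b3 was most like Uvrag (r = 0.99), and that of Slc5a3 was most like Rbm15 (r = 0.973). Sh3pxd2a was most like Slc6a6 (r = 0.986) and Tor1aip2 most like Slc38a2 (r = 0.98).

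Other genes of the pathway were read against the shares of all genes called in RNA under KCl, 27.2% higher and 27% lower at 2 h, and 37.2% and 31.6% at 7 h. Of 12 enzymes that make or break down osmolytes, 3 were called higher, 4 lower and 5 neither at KCl 2 h, and 6, 4 and 2 at 7 h. Their median log2 fold change was -0.06 and 0.40. These counts and medians include Miox, which held no RNA counts in the control or either KCl group and so could not be called there. Miox had 24 RNA counts at H2O2 2 h. Pnpla6, a phospholipase that releases the osmolyte glycerophosphocholine, rose by 0.28 at 2 h and 2.01 at 7 h. Gdpd5, which breaks glycerophosphocholine down, fell by 0.39 and 1.35, and its footprints also fell, by 1.80 and 1.79. Chdh, which makes betaine from choline, fell by 0.55 at 2 h and rose by 1.90 at 7 h, at levels of 2.85, 1.95 and 9.93 mean TPM in control, 2 h and 7 h. Sord, which uses up sorbitol, rose by 1.19 at 7 h, and by 1.14 under H2O2 at 7 h.

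Of 14 genes described as regulators or partners of NFAT5, 8 were called higher and 2 lower in RNA at KCl 2 h, and 10 and 2 at 7 h, with medians of 0.22 and 0.34, against the same shares (27.2% and 27%, and 37.2% and 31.6%). Akap13, an anchoring protein of protein kinase A (1.11 and 1.21), and Spag9, a scaffold of stress kinases (1.03 and 0.68), rose, as did the kinase Map2k3 (0.64 and 0.26) and the helicase Ddx5 (0.63 and 0.21). At 7 h Ptpn11 (0.55), Mapk14 (0.48) and Atm (0.45) rose more than Map2k3 and Ddx5. Others went down. Parp1 RNA stood at a mean of 77.7 TPM in the controls, 71.1 TPM at 2 h and 50.0 TPM at 7 h of KCl. Its counts scaled by normalized library size differed little at 2 h, with a mean of 131 (SD 2.05) against 134.4 (SD 2.62) in the controls. On that scale Parp1 was clearly lower at 7 h, at 92.8 (SD 4.24). These Parp1 values are levels and not calls. Ccm2 RNA went from a mean of 55.5 TPM in the controls to 35.9 TPM at 2 h and 41.8 TPM at 7 h of KCl. Ptpn11, Mapk14, Atm, Parp1 and Ccm2 were named after their values were seen. In footprints 2 of the 14 were called higher at 7 h, against 10.5% of all genes, and 1 lower at 2 h, against 5.06%. In translational efficiency 5 of the 14 were called lower at 2 h, against 9.18% of all genes.

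Of 10 other genes known to respond to hypertonicity, 9 were tested, and 7 were called higher at 2 h (27.2% of all genes) and 6 at 7 h (37.2%) with 1 lower. The medians were 0.59 and 0.92. Hspa4l, a chaperone of the HSP110 family, rose by 0.98 and 3.16, from 98.9 to 899 mean TPM at 7 h. Hspa1b rose by 2.76 and 2.82 and Hspa1a by 2.24 and 2.20, but these near-identical chaperone genes share reads, so their separate values are uncertain. Both were higher in heat as well, Hspa1a by 3.23 at 44 °C and 7.22 at 42 °C. Aqp1, a water channel, rose by 0.58 and 1.79 under KCl and fell by 1.40 under H2O2 at 7 h.

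Of 17 relatives of the 6 genes, 13 were tested. At 2 h 3 were called higher and 2 lower, at or below the shares of all genes (27.2% and 27%), and at 7 h 7 and 1 (37.2% and 31.6%), with medians of 0.10 and 0.53. Slc38a4, another amino acid transporter of the Slc38 family, rose by 1.14 and 1.66. Slc6a9, a glycine transporter, fell by 0.20 at 2 h and rose by 1.19 at 7 h, while under H2O2 at 7 h it rose by 2.44. Akr1b10, another aldo-keto reductase, rose by 0.96 at KCl 7 h and by 1.96 at H2O2 7 h. Nfatc1, another member of the NFAT family, fell by 0.77 and 0.83.

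The study's subject is transcription that runs past gene ends into neighbours, and the authors' deposited tables hold calls for pairs that involve 2 of the 6 genes. For the pair that runs from Cyren and Wdr91 into Akr1b3, a transcript beyond the upstream gene was called in 6 of 16 RNA libraries and read-in to Akr1b3 in 0 of 16, and the highest deposited read-in estimate, a ratio, was 0.0016. For the pair from Lsm3 into Slc6a6 the calls were 3 and 0 of 16, with a highest estimate of 0.000707. Over all 6399 pairs 28.52% of values were called as transcripts beyond the gene and 1.38% as read-in. Wdr91 RNA rose at H2O2 7 h (log2 2.30 ± 0.0651, edgeR, adjusted p 9.23e-13), where Akr1b3 fell, and by 0.75 at KCl 7 h, where Akr1b3 rose by 4.45. Cyren RNA, upstream in the same pair, differed from the control by -0.68 ± 0.109 at H2O2 7 h (edgeR, adjusted p 6.43e-05). At KCl 7 h the Cyren difference was 0.28 ± 0.102 (adjusted p 0.0228). The relation between these changes was not tested. A search by symbol on either side of the pairs found none with the other 4 genes.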

How the data were processed

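The labels give 16 libraries of polyA-selected RNA and 10 of ribosome footprints. Per the submitters' processing notes STAR, RSEM and Bowtie and the build mm10 were used, with no role or version named. Per gene, the authors deposited expected counts (all whole numbers) and TPM values. A read-in estimate, a ratio per gene pair, and true or false calls were also deposited. Another 12 table columns had names of no labelled sample and were left out.

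Expected counts went through edgeR 4.0.16 in R 4.3.3 (filterByExpr, TMM, quasi-likelihood F test); p-values were adjusted by Benjamini-Hochberg across every gene in the fit and called at 0.05. Heat and H2O2/KCl were fitted apart, each with a common spread over its groups. Translational efficiency was the interaction of stress and library kind over the 20 H2O2/KCl libraries, with normalization factors computed within each kind. An SE is the log2 fold change divided by the square root of F, and an interval is 1.96 SE to each side, slightly narrower than the test's own distribution gives. Slc6a12 ratios are of summed counts per library size after TMM normalization, with exact intervals, which cover counting error only. TPM values served for levels.

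The 6 genes and the gene lists were chosen with earlier results of these data known. Named were all 6 genes and, per list, the 4 genes with the largest RNA change among those called under KCl. Further regulators or partners of NFAT5 were named after their values were seen. Mrps6, Cyren, Wdr91 and Slc6a13 are neighbours. Likeness is Pearson's r of log2 counts per 1000000 (prior count 2) after the mean of the control libraries of the same experiment was subtracted. The comparisons of H2O2 7 h with 2 h and of 42 °C with 44 °C were added after seeing the data. Alternatives were DESeq2 1.42.0, its size factors, no filter, limma 3.58.1 on log2(TPM + 1) and log2(TPM + 0.1), only the groups compared, a replicate block, and each library left out.

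Tested on simulated data with 200 changed genes, the fits recovered 92% for KCl 7 h in RNA (13256 genes), with 14.8% of calls false, and 45.5% for efficiency at KCl 2 h (10480 genes), with 15.7% false, above the nominal share of 5%; footprints at KCl 2 h (10545 genes) gave 49% and 8.4%, and 44 °C (12747 genes) 96.5% and 7.2%. Replicates correlated at r = 0.9938 or more in RNA and 0.9574 or more in footprints, and none were duplicates.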

Additional observations from a re-analysis of the deposited data

Results flagged for a closer look

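The values here are log2 differences between the durations of one stress that passed the test (edgeR, Benjamini-Hochberg adjusted p under 0.05); they show that a gene differed between 2 groups of one stress, with no cause tested. The heat groups differ in both temperature and time. From 2 h to 7 h of KCl, RNA differed by 0.34 for Slc5a3, 0.81 for Slc6a6, 8.37 for Slc6a12, 2.52 for Akr1b3 and -0.66 for Slc38a2. Footprints over the same interval differed by 0.98 for Nfat5, 1.47 for Slc5a3, 1.06 for Slc6a6, 7.25 for Slc6a12 and 2.88 for Akr1b3. The Slc6a12 values depend on the prior count, since KCl 2 h held 1 RNA count and 3 footprint counts, and the count ratios of 7 h to 2 h were 397 in RNA (exact 95% interval 70.8 to 15700) and 157 in footprints (53.5 to 765).

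From 2 h to 7 h of H2O2, RNA differed by -0.92 for Nfat5, -0.58 for Slc6a6, 2.39 for Slc6a12, -0.38 for Akr1b3 and -1.20 for Slc38a2. From 44 °C (2 h) to 42 °C (8 h), RNA differed by -0.26 for Nfat5, -0.96 for Slc5a3, 0.32 for Slc6a6, 0.42 for Akr1b3 and -0.16 for Slc38a2. The Slc6a6 difference stood at 0.0053 on both TPM scales with limma (adjusted p 0.93), where the median of all genes lay at -0.20 with a pseudocount of 1.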

How the results depend on the processing

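Over 1389 values of single genes under alternatives, 1315 kept their direction and side of the threshold, 37 lost and 9 gained a call, and 28 changed sign; none of the 28 belonged to a called value. Of 492 counts of called genes 475 stayed within 1.5 times; the cause of the other changes was not tested. Genes called lower in efficiency at KCl 2 h numbered 2 with DESeq2 and 1 to 2 with a library left out; at KCl 7 h DESeq2 called 1 higher and 1 lower. Footprints called higher at H2O2 2 h numbered 0 on both TPM scales with limma and with only the groups compared, and 0 to 1 with a library left out; lower at H2O2 7 h there was 1 without the filter and 0 to 1 with a library left out. RNA called lower numbered 0 to 1 at H2O2 2 h and 1 to 2 from KCl 2 h to 7 h with a library left out, and RNA higher at 42 °C than at 44 °C was 1 on both TPM scales.

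The sign changes, all in log2 differences that did not pass the test in the main analysis, were these. On log2(TPM + 0.1) and log2(TPM + 1) with limma, Nfat5 RNA from KCl 2 h to 7 h was 0.0283 and 0.028, Slc5a3 footprints at KCl 2 h were -0.0438 and -0.0426, and Slc38a2 RNA at 44 °C was 0.000496 on both. With only the groups compared, Slc38a2 footprints from KCl 2 h to 7 h differed by -0.00303. Nfat5 efficiency at H2O2 7 h was -0.0044 with limma voom and -0.00404 without the filter. With each library left out in turn, Akr1b3 ranged from -0.471 to 0.348 in footprints at H2O2 2 h, and in efficiency from -0.3 to 0.526 at H2O2 2 h, -0.395 to 0.401 at H2O2 7 h and -0.524 to 0.289 at KCl 7 h. Nfat5 ranged from -0.145 to 0.347 in footprints at H2O2 2 h, from -0.239 to 0.214 in RNA from KCl 2 h to 7 h, and in efficiency from -0.265 to 0.235 at H2O2 7 h and -0.0512 to 0.36 at KCl 7 h. Slc38a2 footprints from KCl 2 h to 7 h ranged from -0.091 to 0.183. Slc5a3 footprints ranged from -0.281 to 0.297 at KCl 2 h and from -0.504 to 0.0739 for KCl against H2O2 at 2 h. Slc6a12 at KCl 2 h, on 1 to 3 counts a group, ranged from -2.17 to 3.89 in footprints and -1.97 to 2.51 in RNA. In heat the TPM scales moved the median of all genes at 42 °C to -0.16 with a pseudocount of 1.

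Deviations of same-numbered libraries correlated at -0.0531 to 0.117 in RNA and -0.384 to 0.417 in footprints. In footprints the median was 0.199, and 6 of 10 pairs of groups lay above 0.1. The replicate numbers were not taken as pairs in the main fit, and a replicate block was run as an alternative. With a replicate block the calls of the 6 genes stayed as they were except Slc6a12 in RNA at H2O2 2 h (2.63, edgeR, adjusted p 0.0513). Footprint depth, 1460751 to 5168537 counts, limits the footprint and efficiency values.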
